A study of Mus musculus with 15 samples.

Results

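The genes described here are 44 genes of DNA replication and deoxynucleotide supply in cultured mouse ileum. They were listed by name for their role, with earlier results of these data known, and 44 of the 44 were among the 23420 gene symbols counted and among the 13159 genes with enough counts to test. The series holds 15 RNA sequencing libraries from ileal organoids, 3-dimensional cultures of intestinal epithelium grown from the crypts of C57BL/6 mice and used at passage 2. Each of 5 groups had 3 libraries, lettered a, b and c. All 5 groups spent 24 h in the same DMEM medium with 0.2% BSA; it held vehicle in the first group and a mixture of bile acids, called a pool, in the other 4. The pools H10 and H90 imitated human bile acids and M10 and M90 mouse bile acids; the number is the percentage of bile acids hydroxylated at carbon 12α. The labels used here give neither the composition nor the concentration of a pool, so the human and mouse models may differ in more than species. Nothing in the labels says that libraries of 1 group stem from different mice or cultures, and p-values then cover only the spread among these libraries, which may be technical.

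Replication of a genome begins with licensing. The origin recognition complex, with Cdc6 and Cdt1, loads the ring of Mcm proteins onto DNA, and Cdc45 and the GINS complex then turn that ring into the active helicase. Primase and the DNA polymerases copy both strands, a sliding clamp (Pcna) loaded by replication factor C holds the polymerase in place, flaps are cut and nicks are sealed, and ribonucleotide reductase and thymidylate synthase make the building blocks. In the intestine these genes are active mostly in the dividing cells of the crypt, and in many tissues their transcription rises at the start of S phase under E2F factors.

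Libraries held 11245807 to 28989526 counts. Levels are given as CPM, the usual unit of counts relative to the library total, with totals scaled by the trimmed mean of M values (TMM). Markers of epithelium were high, as Epcam lay between 1485 and 2052 CPM in the 15 libraries, while the summed level of 9 mesenchymal markers did not exceed 24.6 CPM and that of 9 immune markers 23.1 CPM. The libraries also fell into 2 sets by Mup20, a urinary protein gene of liver: 7 libraries (vehicle, H10 and H90 a) had 23.0 to 35.9 CPM and 8 (H90 b and c, M10 and M90) had 0.356 to 0.583. The labels give no reason for the sets. M10 and M90 therefore lie wholly in the other set from vehicle, and only H90 has libraries in both.

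All 44 genes were lower than vehicle in H10, in M10 and in M90, and none was called higher in any pool by edgeR, DESeq2 or limma-voom, nor by edgeR at an unadjusted p under 0.05. Their summed level was 1729 to 1931 CPM in the vehicle libraries, 505 to 518 in H10, 1268 to 1366 in H90, 318 to 329 in M10 and 498 to 519 in M90. Vehicle was thus highest and M10 lowest, H90 lay between vehicle and the other pools, and H10 and M90 overlapped. The sum hides large differences between members, since Pcna alone gave 86.01, 82.5 and 84.7 CPM of it in M10. As these are bulk cultures, fewer dividing cells and less of each RNA per dividing cell cannot be told apart.

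By edgeR's quasi-likelihood test with Benjamini-Hochberg adjustment (adjusted p under 0.05, called a change below), 44 of 44 fell in H10 with a median log2 change of -2.10, against 24.5% of all tested genes lower and 24.0% higher. In M10, 44 of 44 fell with a median of -3.20, against 33.3% of tested genes lower and 31.2% higher. In M90, 44 of 44 fell with a median of -2.05, against 28.5% lower and 26.2% higher. H90 was milder: 27 of 44 fell and the median was -0.49, against 9.86% of tested genes lower and 11.7% higher. Averaged over the 4 pools, 44 of 44 fell (median -2.005; 30.3% of tested genes were lower and 27.7% higher), and the median of all tested genes was -0.01. These medians stand for about 23.3%, 10.8%, 24.2% and 71.3% of the vehicle level in H10, M10, M90 and H90.

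**Figure D1:**
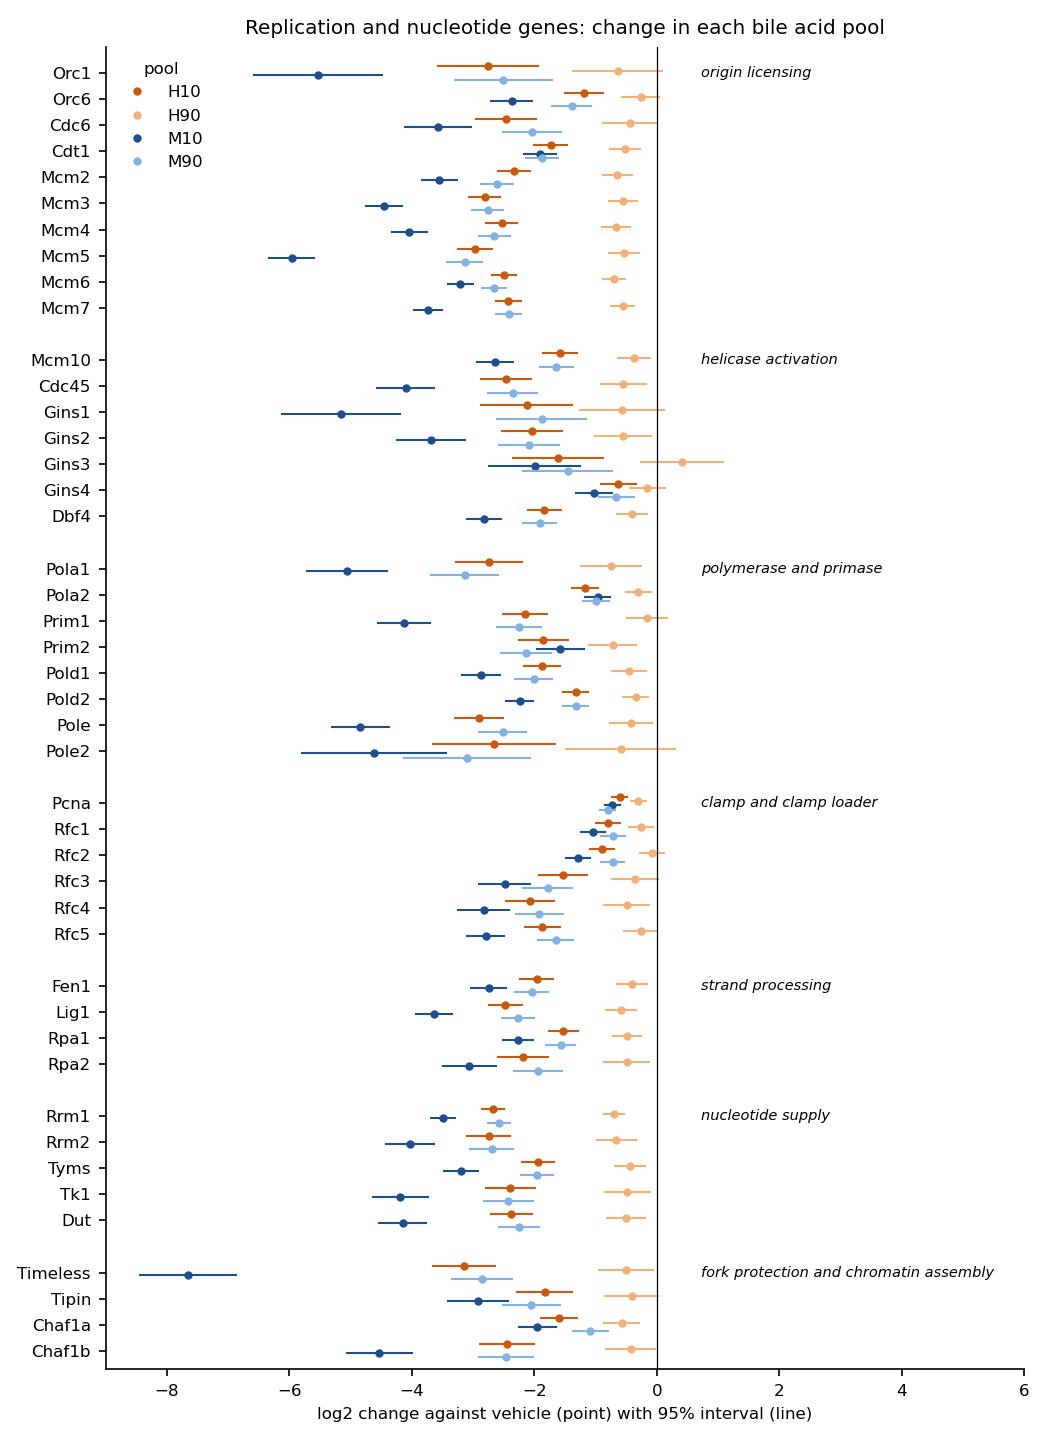
Log2 change against vehicle (x axis) of each of the 44 genes, grouped by role, in the 4 pools. Points are the fitted changes with 95% intervals as lines. For each gene the H90 point lies nearest to 0, with a median of -0.49, and M10 points mostly lie farthest to the left, with a median of -3.20. Pcna, Gins4, Rfc1, Rfc2 and Pola2 form a group of shallow falls.

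The falls in H10, M10 and M90 kept their count of 44 when any 1 library was left out. The count for H90 depended on the libraries: it was 17 without Vehicle c and 5 with the library set as a term in the model (Mcm3, Mcm4, Mcm6, Mcm7 and Rrm1). The 22 genes that lost their call with that term had log2 changes of -0.61 (Prim2) to -0.21 (Mcm10) there, against -0.75 (Pola1) to -0.26 (Rfc1) without it. Cdc45 gave -0.55 both with and without it and Rpa2 -0.58 with it and -0.49 without it. With that term M10 lost 1 call (Gins3) and M90 lost 2 (Gins3 and Gins4). Only H90 has libraries in both sets, so that term was estimated from H90 a against H90 b and c. With it, H90 against vehicle compares H90 a alone with vehicle. M10 and M90 against vehicle are then only shifted by the difference between H90 a and H90 b and c. H10 and vehicle lie in 1 set. The shares of all tested genes called in these alternative runs are not given here, so the smaller counts for H90 cannot be set against them. The count with the set term also rests on fewer libraries.

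Promoters of these genes were also examined. The genes were listed for their role in replication, and such genes were introduced above as rising under E2F factors. The share of E2F letters in their promoters thus describes the list and is no result of these libraries. RefSeq promoter windows (GRCm38.p6, 250 bases before to 50 after a gene's start) were at hand for 36 of the 44 genes, in 41 windows, and were searched on both strands for TTCCCGC, the core letters of an E2F binding site, and for its variants TTGGCGC, or alternatively TTCGCGC, as well as the letters TTGCCGC. Such a match stood in 58.5% of the windows of these genes and in 9.57% of all 32851 windows of the table, and 2 or more matches in 26.8% and 1.18%. Matches that overlap on opposite strands were counted separately. The windows compared were not matched for base composition. The E2F letters of the printed genes below are in capitals. They were chosen as the pairs with the deepest and the shallowest mean falls among the 36 genes with a window, except that Mcm6 was added afterwards because it held the most matches, 5 of them, of which 4 lie before the start. Mcm5 (chr8:75109259-75109508, plus strand) holds 3 matches and Pcna (chr2:132253181-132253430, minus strand) none. Rfc1 (chr5:65335640-65335889, minus strand) holds 2 that both lie within the 50 bases after its start and so outside the printed stretch. Timeless (chr10:128237816-128238065, plus strand) holds none, but its RefSeq start lies 6001 bases inside the longest GENCODE model of the gene, so the window covers 1 of at least 2 annotated starts. The RefSeq start of Pcna lies 134 bases inside its nearest GENCODE start, so part of its printed stretch lies within that gene model. Mcm6 lies at chr1:128359706-128359955, minus strand. Each line gives the 250 bases before the start, 5′ to 3′ on the gene's strand.
Mcm6: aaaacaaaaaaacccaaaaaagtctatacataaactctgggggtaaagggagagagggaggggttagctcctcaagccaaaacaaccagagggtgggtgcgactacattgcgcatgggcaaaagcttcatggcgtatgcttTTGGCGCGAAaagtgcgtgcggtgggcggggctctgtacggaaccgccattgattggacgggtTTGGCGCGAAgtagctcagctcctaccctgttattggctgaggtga
Mcm5: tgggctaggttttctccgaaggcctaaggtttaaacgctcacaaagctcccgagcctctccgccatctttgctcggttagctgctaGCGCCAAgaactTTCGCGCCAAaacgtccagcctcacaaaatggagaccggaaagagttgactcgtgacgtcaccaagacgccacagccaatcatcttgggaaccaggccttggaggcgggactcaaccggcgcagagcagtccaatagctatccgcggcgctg
Timeless: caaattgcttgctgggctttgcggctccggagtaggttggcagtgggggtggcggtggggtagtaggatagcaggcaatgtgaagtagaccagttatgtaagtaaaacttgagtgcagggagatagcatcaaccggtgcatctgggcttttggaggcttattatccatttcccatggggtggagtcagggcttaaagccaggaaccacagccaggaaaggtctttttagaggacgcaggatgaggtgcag
Pcna: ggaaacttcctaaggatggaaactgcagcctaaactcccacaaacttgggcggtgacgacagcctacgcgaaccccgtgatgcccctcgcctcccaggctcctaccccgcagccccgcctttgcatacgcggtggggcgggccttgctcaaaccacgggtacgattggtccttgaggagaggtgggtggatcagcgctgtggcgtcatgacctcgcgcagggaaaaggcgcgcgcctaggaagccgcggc
Rfc1: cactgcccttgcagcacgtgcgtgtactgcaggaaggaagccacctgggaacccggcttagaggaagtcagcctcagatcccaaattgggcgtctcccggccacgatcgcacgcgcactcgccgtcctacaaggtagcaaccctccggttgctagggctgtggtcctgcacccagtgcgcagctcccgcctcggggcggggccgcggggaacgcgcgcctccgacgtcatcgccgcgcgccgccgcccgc

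Of the 43 E2F-type matches, 30 lay within 100 bases of the start, at a median position of -24. Other motifs were distributed otherwise. The CCAAT box stood in 53.7% of these windows and in 37.4% of all windows, the GC box GGGCGG in 70.7% and 35.7%, and the letters TTTGAA, the core of the cell cycle homology region found in promoters of mitotic genes, in 14.6% and 17.9%. In the 20 windows of a list of mitosis genes the shares were 15% for the E2F letters, 85% for CCAAT, 85% for the GC box and 75% for TTTGAA. A total of 5 E2F and CCAAT matches in the 41 windows overlapped each other. The 22 genes with an E2F-type match had a median log2 change of -2.21 over the mean of the pools (-3.15 to -0.71) and the 14 without one -1.70 (-3.54 to -0.61), so the ranges overlapped widely. A match of letters is no evidence that a factor binds there.

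**Figure D2:**
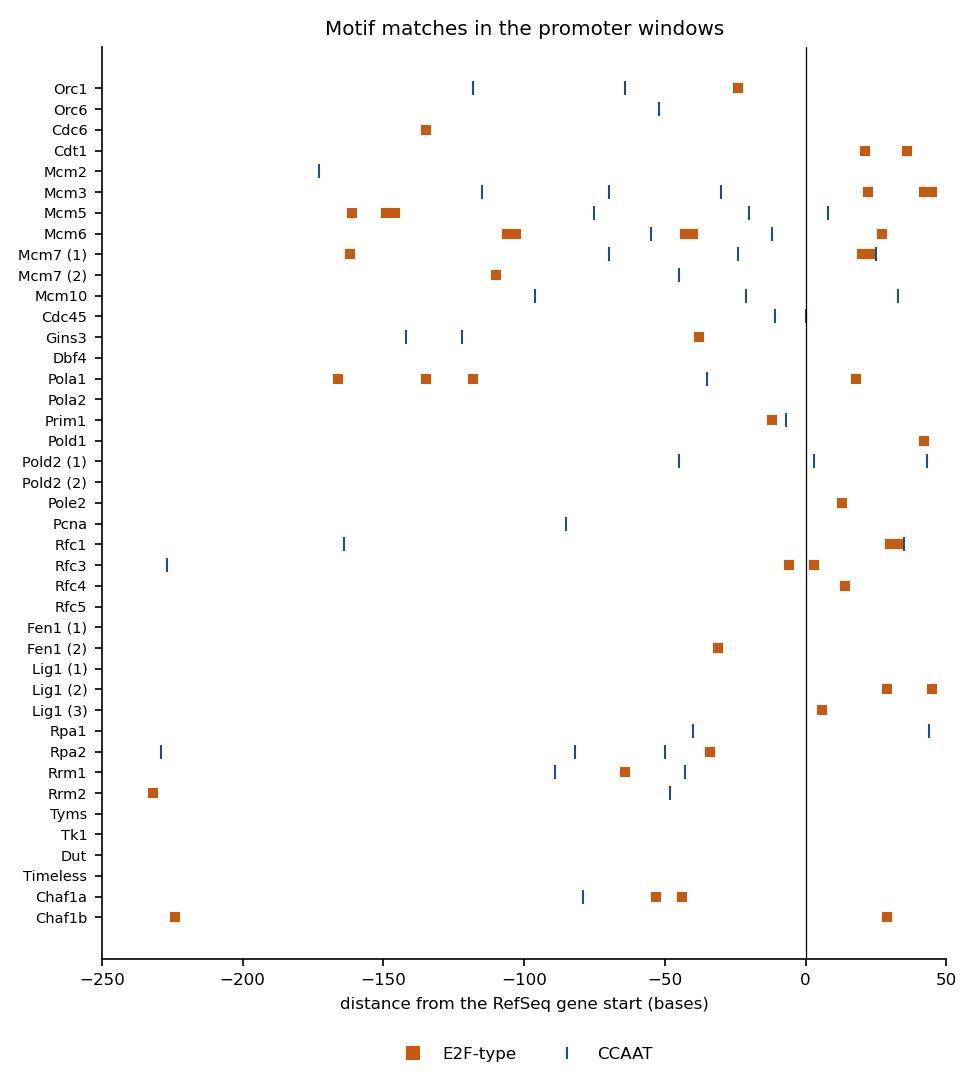
Position of E2F-type matches (orange squares) and CCAAT matches (blue bars) in the RefSeq windows, by distance from the gene start in bases. Numbers in brackets tell apart several windows of 1 gene. Of the 43 orange squares, 30 lie within 100 bases of the start, while 17 windows, such as those of Pcna and Dut, hold none.

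Among the 10 origin licensing genes the median log2 change against vehicle was -2.48 for H10, -0.55 for H90, -3.65 for M10 and -2.56 for M90. Statements that a gene fell farthest or least of its role refer, here and below, to the mean of the 4 pools. Mcm7 (chr5:138164583-138172422), a subunit of the helicase ring, gave the most reads of the role. Mcm7 measured 92.96, 90.3 and 109 CPM in vehicle, 18.04, 18.8 and 17.6 in H10, 67.7, 62.2 and 69.1 in H90, 6.09, 7.003 and 9.06 in M10 and 17.4, 18.6 and 18.7 in M90. The 3 vehicle and 3 H90 libraries lay above all H10, M10 and M90 libraries, and M10 lay below every other group. Its log2 change was -3.74 ± 0.11 (SE, adjusted p = 1.35e-26) in M10 and -0.56 ± 0.09 (SE, adjusted p = 1.47e-05) in H90. Mcm5 (chr8:75109569-75128439), another ring subunit, fell farthest of the role. Mcm5 measured 78.5, 67.5 and 77.8 CPM in vehicle, 9.53, 10.6 and 8.51 in H10, 54.2, 51.3 and 48.4 in H90, 1.72, 1.15 and 0.560 in M10 and 6.93, 9.94 and 8.42 in M90. The fitted level in M10 was 1.60% of vehicle (log2 change -5.96 ± 0.18 (SE, adjusted p = 1.49e-24)), against 12.8% in H10. Orc6 (chr8:85299632-85308278), a subunit of the origin recognition complex, fell least, although in M10 alone Cdt1 (-1.91) fell less than Orc6 (-2.37). Orc6 stood at 20.04, 21.2 and 24.03 CPM in vehicle, 10.02, 8.52 and 10.1 in H10, 17.5, 19.1 and 17.9 in H90, 4.36, 4.996 and 3.21 in M10 and 8.69, 7.64 and 8.55 in M90. Its H90 libraries lay below the vehicle libraries, yet the difference was not called, at -0.26 ± 0.15 (SE, adjusted p = 0.23).

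The 6 subunits of the Mcm ring kept less equal levels in M10 than in vehicle. Per kilobase of annotated exon they had mean levels of 9.13 (Mcm2) to 22.0 (Mcm7) CPM per kb in vehicle and of 0.287 (Mcm5) to 2.33 (Mcm6) in M10. Mcm6 stood at 2.33 ± 0.0414 CPM per kb (SD, n = 3) in M10 and Mcm5 at 0.287 ± 0.146, while in vehicle they stood at 21.6 ± 0.761 and 18.7 ± 1.54. Log2 changes of the other 3 subunits in M10 were -3.55 for Mcm2, -4.45 for Mcm3 and -4.04 for Mcm4. The loader Cdc6 changed by -2.46 in H10 and -3.57 in M10. Cdt1, its partner in loading, changed by about the same amount in H10 (-1.74), M10 (-1.91) and M90 (-1.87). Orc1, the ATPase subunit of the origin complex, changed by -5.54 in M10, where its 3 libraries held 9 counts in all (counting interval 0.0595 to 0.247 CPM).

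The 7 helicase activation genes had median changes of -1.84, -0.41, -2.82 and -1.88 in H10, H90, M10 and M90. Mcm10 (chr2:4989714-5012791), which helps to open the helicase, gave the most reads among them. Mcm10 stood at 38.9, 39.5 and 47.9 CPM in vehicle, 15.1, 12.7 and 14.3 in H10, 36.5, 30.1 and 30.1 in H90, 4.94, 7.34 and 8.04 in M10 and 12.8, 14.5 and 13.2 in M90. All pool libraries were below the lowest vehicle library, and the fall in M10 was -2.65 ± 0.14 (SE, adjusted p = 1.60e-18). Gins1 (chr2:150905400-150931280), a GINS subunit, was a scarce transcript. Gins1 gave 4.31, 5.80 and 7.39 CPM in vehicle, 1.83, 0.988 and 1.22 in H10, 4.23, 4.45 and 3.13 in H90, 0.268, 0.0427 and 0.153 in M10 and 2.01, 1.30 and 1.45 in M90. The ranges of vehicle and H90 overlapped, and M10 rested on 11 counts in all, with 2 of its 3 libraries at or under the floor of 3 counts. Gins4 (chr8:23226616-23237659), from the same complex, fell least. Gins4 gave 21.96, 20.4 and 24.8 CPM in vehicle, 12.7, 14.9 and 15.8 in H10, 20.4, 20.98 and 18.6 in H90, 8.31, 11.4 and 13.3 in M10 and 13.8, 13.98 and 14.5 in M90. Vehicle and H90 overlapped, and the change in M10 was -1.03 ± 0.14 (SE, adjusted p = 8.97e-08).

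GINS is a complex of 4 different subunits, and their transcripts did not move alike. Per kb, Gins4 had 16.6 ± 1.64 CPM in vehicle and 8.16 ± 1.87 in M10, while Gins1 had 3.85 ± 1.02 and 0.102 ± 0.0743. Gins3 was the only one of the 44 genes with a positive fitted change in H90 (0.41 ± 0.33 (SE, adjusted p = 0.427)), which was not called. Gins2 changed by -3.69 in M10, but 67.3% of its exon bases overlap exons of Gse1 on the opposite strand, and without a stated strand setting reads of the pair cannot be told apart. Cdc45, the third part of the active helicase, changed by -2.47 in H10 and -4.10 in M10. Dbf4, the regulatory subunit of the kinase that fires origins, changed by -1.84 and -2.82.

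Polymerase and primase genes (8) had medians of -2.02 for H10, -0.44 for H90, -3.50 for M10 and -2.19 for M90. Pold2 (chr11:5872180-5878292), a subunit of the polymerase of the lagging strand, gave the most reads. Pold2 measured 66.98, 62.4 and 71 CPM in vehicle, 24.7, 26.5 and 28.5 in H10, 53, 52.5 and 52.1 in H90, 14.8, 10.8 and 16.9 in M10 and 27.3, 26.2 and 26.3 in M90. No 2 groups overlapped except H10 and M90, and the log2 change was -2.24 ± 0.11 (SE, adjusted p = 4.36e-20) in M10. Pola1 (chrX:93304767-93632155), the catalytic subunit of polymerase alpha, fell farthest. Pola1 measured 22.4, 18.1 and 21.9 CPM in vehicle, 3.93, 3.59 and 1.96 in H10, 13.8, 11.8 and 11.3 in H90, 0.306, 0.512 and 1.12 in M10 and 1.76, 1.82 and 3.42 in M90. Its change was -5.06 ± 0.32 (SE, adjusted p = 3.40e-15) in M10 and -0.75 ± 0.24 (SE, adjusted p = 0.0216) in H90. Pola2 (chr19:5940542-5964202) encodes the partner subunit of Pola1 and fell least. Pola2 measured 39.1, 44.01 and 45.2 CPM in vehicle, 19.1, 20.2 and 17.6 in H10, 36.01, 33.6 and 34.5 in H90, 22.7, 24.1 and 18.8 in M10 and 21.9, 22.1 and 20.6 in M90. The M10 range held all 3 M90 libraries and reached into H10, and the changes were -1.18 ± 0.10 (SE, adjusted p = 5.04e-12) in H10 and -0.97 ± 0.10 (SE, adjusted p = 2.01e-10) in M10.

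The contrast inside the polymerase alpha complex recurred in primase, its RNA-synthesizing partner. Prim1, the catalytic subunit, changed by -2.15 in H10 and -4.13 in M10, while Prim2, the large subunit, changed by -1.86 and -1.57. Thus Pola1 and Prim1 were lower in M10 than in H10 (log2 difference -2.33 ± 0.35 (SE, adjusted p = 2.68e-06) and -1.98 ± 0.22 (SE, adjusted p = 2.55e-09)), whereas Pola2 and Prim2 gave 0.21 ± 0.11 (SE, adjusted p = 0.13) and 0.28 ± 0.20 (SE, adjusted p = 0.299), which were not called. Without M10 c, Pola2 was called higher in M10 than in H10, at 0.30 (adjusted p = 0.0298). Pole, the catalytic subunit of the leading-strand polymerase, changed by -4.84 in M10 and Pold1, that of the lagging-strand polymerase, by -2.87. Pole2, a small subunit of the former, held 20 counts in 1 M10 library and 1 and 0 in the other two, so its M10 value (-4.62) rests almost wholly on 1 library.

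Clamp and clamp loader genes (6) showed the smallest median fall of the 7 roles in each pool, at -1.21 for H10, -0.28 for H90, -1.88 for M10 and -1.23 for M90. Pcna (chr2:132249162-132253314), the sliding clamp, was the gene with the highest level per kb of exon among the 44 in every group. Pcna stood at 138, 138 and 144 CPM in vehicle, 87.1, 90.02 and 98.9 in H10, 119, 112 and 109 in H90, 86.01, 82.5 and 84.7 in M10 and 81.7, 80.6 and 78.6 in M90. The M90 libraries lay just below the M10 libraries, and H10 just above both. Its changes were -0.60 ± 0.06 (SE, adjusted p = 5.74e-11) in H10, -0.30 ± 0.06 (SE, adjusted p = 0.000197) in H90, -0.73 ± 0.06 (SE, adjusted p = 1.87e-13) in M10 and -0.80 ± 0.06 (SE, adjusted p = 3.16e-14) in M90. Rfc4 (chr16:23113943-23127737), a small subunit of the clamp loader, fell farthest of the role. Rfc4 stood at 18.1, 17.6 and 19.3 CPM in vehicle, 3.93, 4.99 and 4.12 in H10, 13.4, 14.04 and 11.4 in H90, 2.72, 2.78 and 2.19 in M10 and 6.23, 3.65 and 4.70 in M90. The H10 and M90 ranges overlapped, and the change in M10 was -2.83 ± 0.20 (SE, adjusted p = 5.32e-15). The large subunit Rfc1 changed by -1.05 in M10 and Rfc2 by -1.28, against -2.48 for Rfc3 and -2.80 for Rfc5. Exons of Rfc2, Rfc4 and Rfc5 overlap those of another counted gene over 15.1%, 12.7% and 10.7% of their bases.

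Strand processing genes (4) had medians of -2.07, -0.49, -2.90 and -1.99 in H10, H90, M10 and M90. Lig1 (chr7:13277283-13311433), the ligase that seals Okazaki fragments, gave the most reads of the role and fell farthest. Lig1 stood at 62.8, 61.2 and 76.9 CPM in vehicle, 13.5, 10.8 and 11.95 in H10, 47.4, 39.8 and 46.5 in H90, 5.47, 6.83 and 3.67 in M10 and 14.4, 14.3 and 12.96 in M90. All 3 H90 libraries lay between vehicle and the other pools, and the changes were -0.59 ± 0.12 (SE, adjusted p = 0.000429) in H90 and -3.64 ± 0.14 (SE, adjusted p = 2.03e-21) in M10. Rpa1 (chr11:75298166-75348324), the large subunit of the single-strand binding protein, fell least. Rpa1 stood at 50.4, 53.1 and 58.5 CPM in vehicle, 20.04, 19.02 and 17.3 in H10, 40.4, 42.01 and 32.9 in H90, 10.6, 12.8 and 10.1 in M10 and 15.9, 21.4 and 17.3 in M90. Its change in M10 was -2.27 ± 0.12 (SE, adjusted p = 1.04e-18). Rpa2, its partner, changed by -3.06 in M10, and Fen1, the flap endonuclease, by -2.75. Of the exon bases of Fen1, 78.8% overlap exons of Gm10143 on the opposite strand, a gene that was not among those counted. Without a stated strand setting, reads of Fen1 and Gm10143 cannot be told apart.

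Nucleotide supply genes (5) had medians of -2.39 for H10, -0.51 for H90, -4.03 for M10 and -2.42 for M90. Rrm1 (chr7:102441695-102469771), the large subunit of ribonucleotide reductase, was measured with the smallest relative spread of the named genes in M10. Rrm1 stood at 111, 109.8 and 114 CPM in vehicle, 18.6, 15.9 and 17.8 in H10, 73.2, 72.9 and 59.8 in H90, 9.99, 9.82 and 9.93 in M10 and 19.2, 19.1 and 17.7 in M90. Its fitted level in M10 was 8.90% of vehicle, a log2 change of -3.49 ± 0.09 (SE, adjusted p = 1.18e-27). Rrm2 (chr12:24708241-24714146), the small subunit that is made in S phase, fell farthest of the role for the mean of the pools, though not in H90 or M10. Rrm2 stood at 52.9, 46.4 and 57.1 CPM in vehicle, 7.33, 6.86 and 8.98 in H10, 36.6, 32.6 and 29.03 in H90, 4.13, 1.62 and 3.77 in M10 and 8.03, 7.77 and 8.25 in M90. Its change was -4.03 ± 0.19 (SE, adjusted p = 1.72e-17) in M10 and -0.66 ± 0.15 (SE, adjusted p = 0.00198) in H90. Tyms (chr5:30058202-30073617), thymidylate synthase, fell least, with the reserve that a processed pseudogene of it was counted as a gene of its own. Tyms stood at 37.1, 36.2 and 43.4 CPM in vehicle, 11.4, 9.46 and 9.56 in H10, 27.8, 27.4 and 31.4 in H90, 4.17, 4.40 and 4.12 in M10 and 10.6, 8.82 and 10.6 in M90. The change in M10 was -3.20 ± 0.14 (SE, adjusted p = 2.89e-21). Tk1, the thymidine kinase of S phase, changed by -4.18 in M10, and Dut, which removes dUTP, by -4.15.

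Fork protection and chromatin assembly genes (4) had medians of -2.14, -0.47, -3.72 and -2.25. Timeless (chr10:128232065-128252941), which with Tipin steadies the fork, had the deepest fall of the 44 genes in H10, in M10 and for the mean of the pools (-3.54). It did not have the deepest fall in H90 or M90, and its mean includes the M10 value, which rests on few counts. Timeless stood at 15.4, 14.3 and 17.1 CPM in vehicle, 2.05, 1.56 and 1.69 in H10, 13.3, 9.92 and 9.56 in H90, 0.0766, 0.128 and 0 in M10 and 1.86, 1.78 and 2.78 in M90. M10 libraries held 5 Timeless counts in all, each at or under the floor of 3 counts, for a pooled level of 0.0723 CPM (counting interval 0.0235 to 0.169). The fitted change of -7.65 ± 0.39 (SE, adjusted p = 1.88e-19) in M10 rests on those counts, while H10, with -3.15 ± 0.25 (SE, adjusted p = 2.44e-13), does not. Tipin changed by -1.83 in H10 and -2.91 in M10. Chaf1a (chr17:56040439-56072289), the large subunit of the histone chaperone that follows the fork, fell least of the role. Chaf1a stood at 37.8, 42.2 and 43.3 CPM in vehicle, 11.9, 12.8 and 15.95 in H10, 28.7, 30.7 and 22.9 in H90, 12.3, 11.96 and 7.38 in M10 and 18.7, 21.1 and 18.3 in M90. Groups H10 and M10 overlapped, and the change in M10 was -1.95 ± 0.15 (SE, adjusted p = 9.12e-14). Its partner Chaf1b changed by -4.53 in M10, but 52.5% of the exon bases of Chaf1a overlap those of Ubxn6 on the opposite strand.

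**Figure D3:**
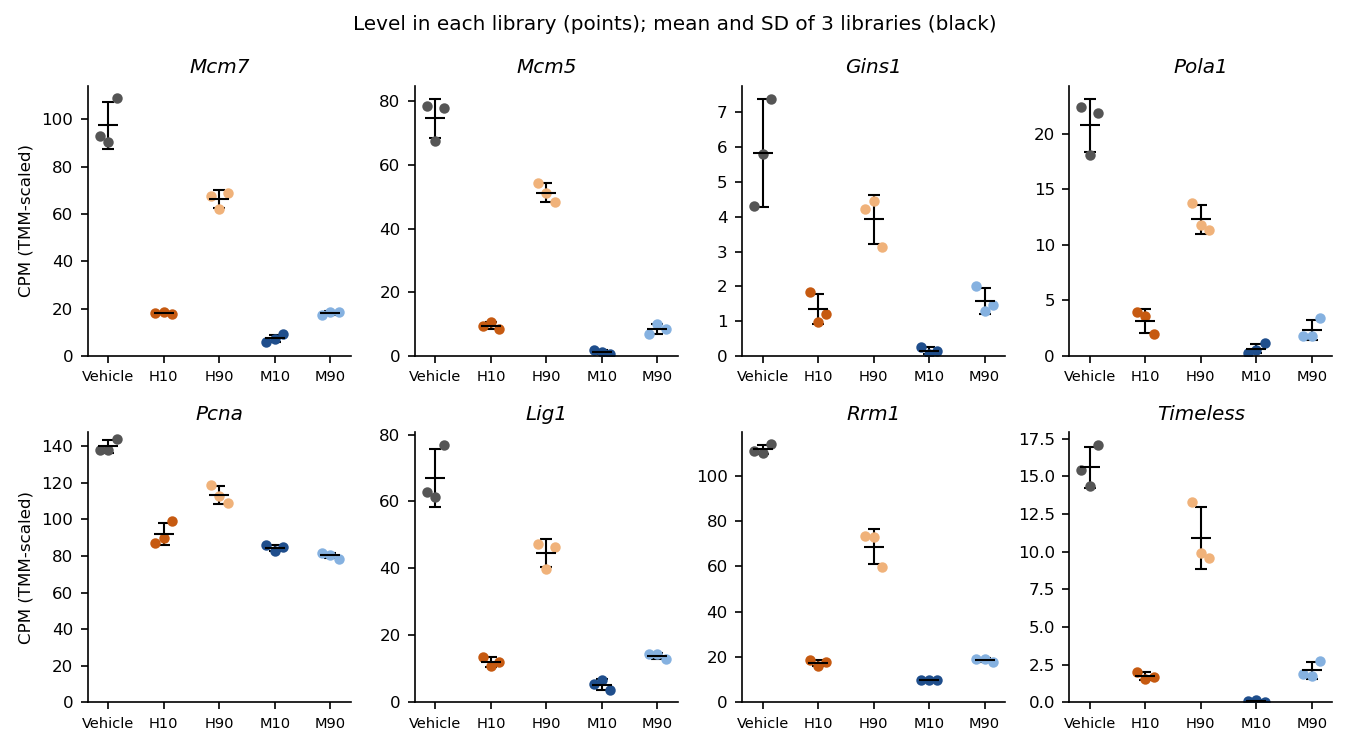
CPM per library (points) of 8 genes, with mean and SD of 3 libraries per group in black, on linear axes that start at 0. Vehicle is highest in each panel and H90 next. M10 lies at or near 0 for Mcm5, Gins1, Pola1 and Timeless, whereas Pcna stays at 78.6 CPM or more in all libraries.

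Within the human model, a larger share of 12α-hydroxylated bile acids went with higher levels of every member. H90 exceeded H10 for 44 of 44 genes, with a median log2 difference of 1.65, where 18.2% of tested genes were higher and 18.4% lower. Differences ran from 0.30 for Pcna to 2.64 for Timeless. H10 and H90 a lie in the library set of vehicle and H90 b and c in the other, so share and set are partly mixed here. The summed level was 1366 CPM in H90 a, against 505 to 518 in H10. Within the mouse model, M90 exceeded M10 for 38 of 44 with a median of 1.07, where 21.3% of tested genes were higher and 20.0% lower. Cdt1, Gins3, Pola2, Pole2 and Pcna were not called there. Pole2 depended on M10 b, the library with 20 counts: its log2 difference was 1.51 with all libraries and 5.00 without M10 b (adjusted p = 5.30e-06), and it was also called with upper-quartile or library size scaling, no filter beyond 1 count and limma-voom (adjusted p = 0.00487 to 0.043). Prim2 went the other way, at -0.56 ± 0.20 (SE, adjusted p = 0.0257), and that call was lost under upper-quartile and library size scaling, with limma-voom, with the M10 and M90 libraries fitted alone, and without M10 b, M90 b or M90 c. Pcna gave -0.07 ± 0.06 (SE, adjusted p = 0.358), with a 95% interval of -0.20 to 0.05, and Cdt1 0.03 ± 0.14 (SE, adjusted p = 0.878), with an interval of -0.24 to 0.31. Within the second library set alone, 36 of the 44 genes were called higher in M90 than in M10 and none lower; there Prim2 gave -0.57 (adjusted p = 0.0653).

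**Figure D4:**
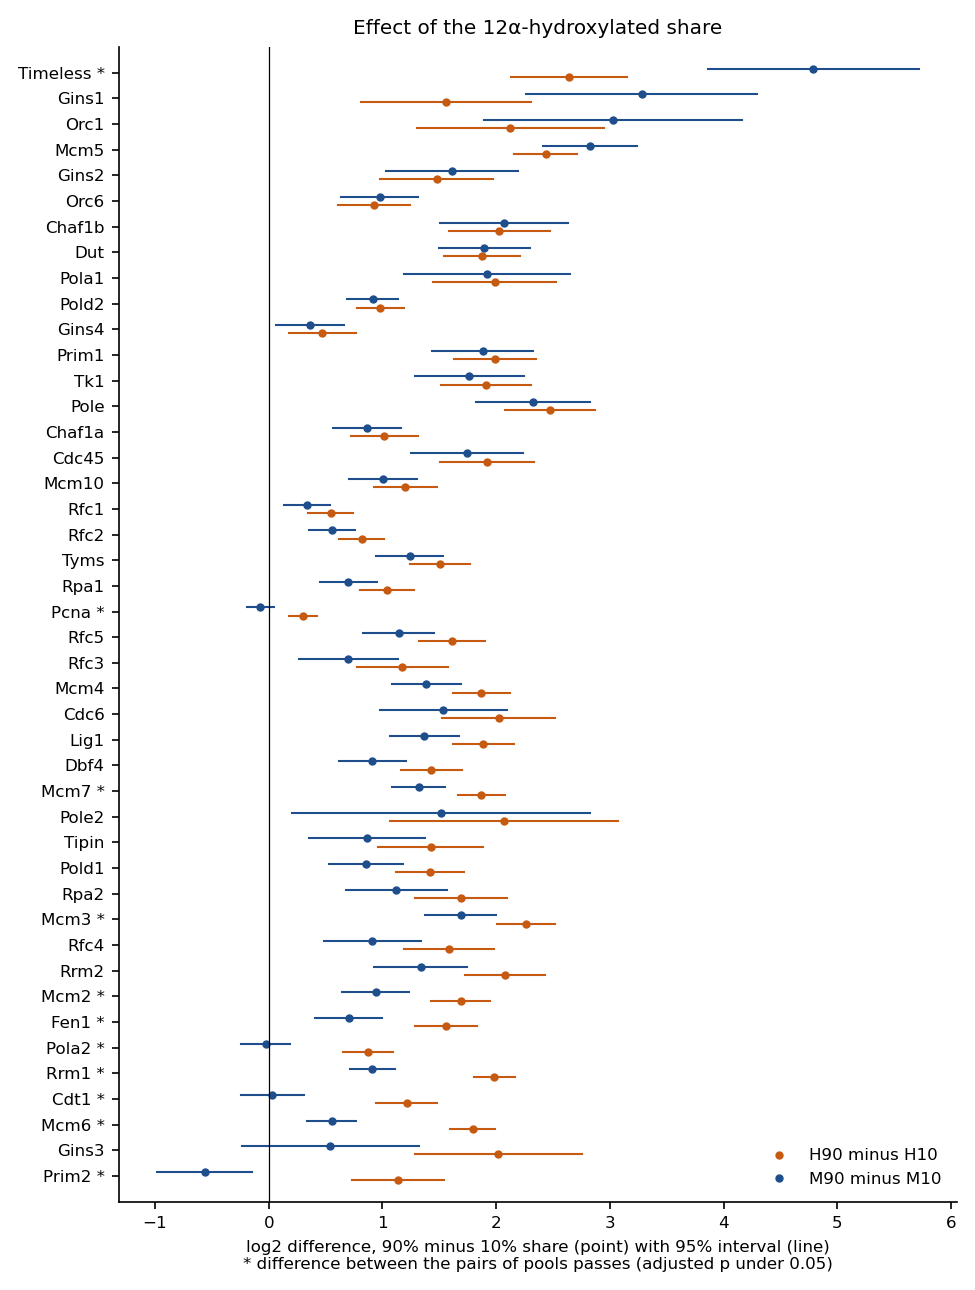
Log2 difference between the 90% and the 10% pool (x axis, 95% interval as line) in the human model (orange) and the mouse model (blue), ordered by the difference between these. The orange points all lie above 0, from 0.30 to 2.64. Blue points lie above 0 for most genes and at or below it for Pcna, Pola2 and Prim2, and a star marks the 11 genes whose effect differed between the models.

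At the same nominal share, the mouse pools gave lower levels than the human pools. M10 was below H10 for 37 of 44 genes, with a median of -1.09, where 18.1% of tested genes were lower and 18.2% higher. The 7 not called were Cdt1, Gins3, Pola2, Prim2, Pcna, Rfc1 and Chaf1a. Of these, Pcna, Rfc1 and Chaf1a were called lower with upper-quartile or library size scaling. M10 and H10 lie wholly in different library sets. With the library set as a term, which rests on H90 a against H90 b and c, the count was 27. M90 was below H90 for 44 of 44, with a median of -1.62, where 19.5% of tested genes were lower and 19.2% higher, and also for 44 of 44 with only the libraries of the second set. The deepest difference between M90 and H90 was -2.60 for Mcm5.

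The effect of the share differed between the human and the mouse model for 11 of 44 genes, by a test of the interaction (M90 minus M10, minus H90 minus H10). For 10 the effect was smaller in the mouse model, and among these Prim2 went the other way there, at -0.56. For Timeless it was larger, but that value rests on 5 counts in M10. The Timeless call was lost with limma-voom, and also when M10 c was left out. Among all tested genes 6.92% had a negative and 7.85% a positive interaction. The median over the 44 was -0.42. Prim2 gave -1.70 ± 0.29 (SE, adjusted p = 4.18e-05), Mcm6 -1.24 ± 0.14 (SE, adjusted p = 4.94e-08), Cdt1 -1.18 ± 0.19 (SE, adjusted p = 2.01e-05) and Rrm1 -1.07 ± 0.13 (SE, adjusted p = 2.17e-07). For Cdt1, the means were 11.5 ± 1.29 CPM (SD, n = 3) in H10 and 26.6 ± 3.48 in H90, but 10.1 ± 0.623 in M10 and 10.4 ± 0.802 in M90, so the mouse pair differed by less than the spread of its libraries. Mcm6 rose from 17.9 ± 2.67 to 61.9 ± 3.82 in the human pair and from 10.9 ± 0.193 to 15.9 ± 1.49 in the mouse pair.

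Other genes of replication mostly moved the same way but less far. The comparison below is the mean of the 4 pools against vehicle, for which 30.3% of tested genes were lower and 27.7% higher. Of 23 other origin and fork factors, 19 fell and 1 rose, with a median of -0.93. Clspn, the checkpoint mediator claspin, changed by -3.19 ± 0.15 and Topbp1, which helps fire origins, by -1.86 ± 0.07 (SE). Mcmbp, an Mcm-binding protein, was the 1 that rose, by 0.22 ± 0.05. Of 10 other polymerase, RPA and RNase H2 genes, 9 fell and 1 rose (median -0.79): Parp1, a sensor of DNA breaks, changed by -1.27 ± 0.07, and Pold4, a small polymerase delta subunit, rose by 0.68 ± 0.07. All 11 other chromatin factors of replication fell (median -1), among them the maintenance methyltransferase Dnmt1 at -2.03 ± 0.05 and its recruiter Uhrf1 at -2.74 ± 0.09.

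Precursor pathways were split. Of 13 other deoxynucleotide genes, 9 fell (median -0.61), and Dtymk, thymidylate kinase, changed by -1.57 ± 0.10. Among 9 folate and one-carbon genes, 5 fell and 4 rose (median -0.47). Shmt1, a cytosolic serine hydroxymethyltransferase, changed by -2.37 ± 0.09 and Mthfd1, a cytosolic folate enzyme, by -1.68 ± 0.06, whereas Mthfd2, a mitochondrial folate enzyme, rose by 0.78 ± 0.06 and the folate carrier Slc19a1 by 0.63 ± 0.07. Of 12 purine synthesis genes, 9 fell and 1 rose (median -1.03), with Impdh2, of guanine nucleotide synthesis, at -1.41 ± 0.06. Of 8 pyrimidine synthesis genes, 5 fell and 1 rose (median -0.81), with the CTP synthase Ctps at -2.01 ± 0.13.

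Neighbouring groups give scale to these falls. Of 9 tested genes of mitochondrial DNA replication, which proceeds outside S phase as well, 8 fell (median -0.44), with the mitochondrial factor Tfam at -0.82 ± 0.07 and the exonuclease Mgme1 at -1.45 ± 0.15. Of 11 repair and translesion polymerase genes, 6 fell and 1 rose (median -0.28). Their range was wide, as Polq, the polymerase of end joining, changed by -3.06 ± 0.27. All 22 mitosis genes fell (median -2.70), with the topoisomerase Top2a at -2.82 ± 0.05. By pool, the median of the mitosis list was -2.40 for H10, -0.61 for H90, -5.17 for M10 and -2.47 for M90, which is beyond that of the 44 replication genes in each pool. Differences between the lists themselves were not tested.

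**Figure D5:**
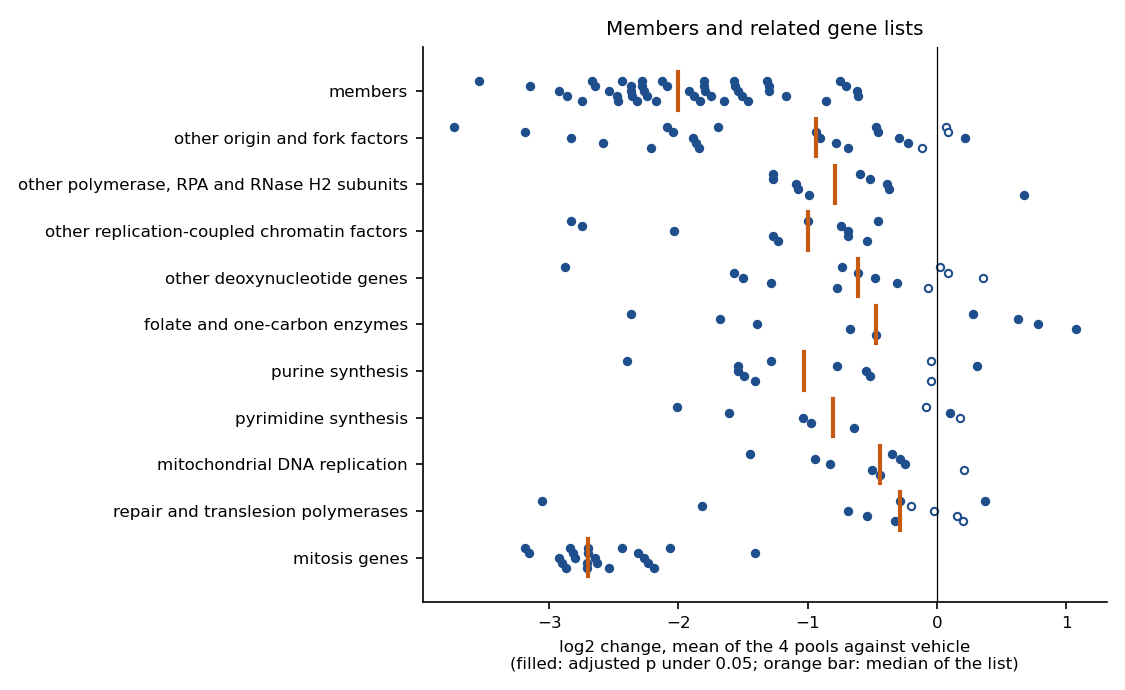
Log2 change for the mean of the 4 pools against vehicle (x axis) of the 44 genes ("members") and of each gene in 10 related lists. Filled circles are changes at adjusted p under 0.05, open circles are not, and orange bars are list medians. The 44 genes centre on -2.005 and the mitosis genes on -2.70, while the medians of the 9 other lists lie between -1.03 and -0.28.

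Cell type markers moved as well. The summed level of 8 crypt stem cell markers was 449 to 488 CPM in vehicle, 104 to 127 in H10, 247 to 281 in H90, 111 to 118 in M10 and 102 to 104 in M90. Its order was therefore close to that of the replication genes except that M10 was not the lowest. All 8 fell for the mean of the pools, and Olfm4 changed by -6.27 ± 0.14. The sum of 10 enterocyte markers was 12710 to 15320 CPM in vehicle, 20220 to 20740 in H10, 14380 to 15160 in H90, 33570 to 34890 in M10 and 23570 to 24990 in M90. For the mean of the pools 9 of the 10 rose, but in H90 alone 5 rose and 3 fell, while in M10 all 10 rose. The sum of 7 goblet markers was 1210 to 1235 CPM in vehicle and 7208 to 8164 in M10. For the mean of the pools, 6 of 7 goblet markers were higher and Clca1 was lower (-0.41 ± 0.17). All 6 tested Paneth markers were higher for that mean, against 5 of 6 in M10. The liver list fell from 199.4 to 243 CPM in vehicle to 85.9 to 95.04 in M10 and 77.8 to 113.8 in M90, along the library sets, and H90 ran from 85.9 to 259. The sum of 9 mesenchymal markers was 9.49 to 12.7 CPM in vehicle, 9.51 to 11.04 in H10, 16.2 to 23.2 in H90, 18.8 to 20.6 in M10 and 19.5 to 24.6 in M90. Of the 3 mesenchymal markers tested, Col1a1 (5.68 ± 2.23, edgeR adjusted p = 0.0492) and Pdgfrb (0.40 ± 0.15) were higher for the mean of the pools and Vim was not called. Col1a1 was scarce, at 0 to 8.21 CPM over the 15 libraries, and none of the 3 was called in H10. In vehicle, 3 of 9 mesenchymal markers (Col1a2, Lum and Pdgfra) were at 0, as were the T cell receptor genes Cd3e and Cd3g. The part of these marker changes in the falls of the replication genes was not tested.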

How the data were processed

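RNA of the 15 libraries was selected for poly-A and prepared with a TruSeq kit, per the labels' protocols. Each deposited file gives the authors' raw counts for 1 library by gene symbol, without normalization. The submitters' processing notes name bcl2fastq 2.17, STAR 2.5.2b, featureCounts 1.5.0-p3 and mm10 (GRCm38). Annotation, strand setting and handling of multimapping reads are not given in the sources used here. From the counts, filterByExpr kept 13159 of 23420 symbols, TMM factors scaled the totals, and edgeR's quasi-likelihood F test (robust, two-sided, 10 contrasts) was run on a model with a mean for each of the 5 groups, which leaves 10 residual degrees of freedom (common dispersion 0.00776). P-values were adjusted by Benjamini-Hochberg over all tested genes, with a threshold of 0.05. Standard errors come from the quasi-likelihood F. Counting intervals are exact Poisson intervals at 95% and, like the floor of 3 counts, cover counting error only. All 44 symbols matched GENCODE vM21 (GRCm38), which gave positions and the union of exon bases for levels per kb; promoter windows are from RefSeq (GRCm38.p6).

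The members and lists were chosen with earlier results of these data known. Values per library are given for the gene with the highest mean CPM and those with the most and the least negative change (mean of pools) in each of 7 roles; of each other list, up to 2 genes per direction with the smallest adjusted p qualified, and further names were picked with their values in view. Alternatives were scaling by RLE, by the upper quartile or by library size, looser and stricter filters, DESeq2, limma-voom, the groups of a contrast alone, a replicate block, the library set as a term, fits within a set, and leaving out each library. The model script was tested on simulated data. Software was edgeR 4.0.16, DESeq2 1.42.0 and limma 3.58.1 in R 4.3.3, with figures drawn in matplotlib 3.10.9 under python 3.11.15.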

Additional observations from a re-analysis of the deposited data

Results flagged for a closer look

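For 11 of the 44 genes the effect of the 12α-hydroxylated share differed between the mouse and the human model by edgeR's interaction test. As log2 differences between the 2 effects (mouse minus human), the values were -1.698 for Prim2 (adjusted p = 4.18e-05), -1.24 for Mcm6 (4.94e-08), -1.182 for Cdt1 (2.01e-05), -1.071 for Rrm1 (2.17e-07), -0.8983 for Pola2 (3.58e-05), -0.8545 for Fen1 (0.00212), -0.75 for Mcm2 (0.00644), -0.575 for Mcm3 (0.0498), -0.5518 for Mcm7 (0.0112), -0.3761 for Pcna (0.0017) and 2.15 for Timeless (0.0117). Timeless is the 1 with the larger effect in the mouse model, and it rests on 5 counts in M10. Means in M10 and M90 were 5.66 ± 1.07 and 3.84 ± 0.424 CPM (SD, n = 3) for Prim2 and 21.9 ± 2.75 and 21.5 ± 0.808 for Pola2, against 4.65 ± 1.20 and 10.2 ± 0.831, and 18.99 ± 1.29 and 34.7 ± 1.24, in H10 and H90.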

How the results depend on the processing

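No gene of the 44 that was called in a contrast with all libraries changed sign under any alternative run. Of those not called, Pole2 turned from -0.56 to 2.93 in the interaction without M10 b and was then called (adjusted p = 0.0496). The count for H90 against vehicle moved most, from 27 to 5 with the library set as a term, and ranged from 17 (without Vehicle c) to 29 when 1 library was left out. The fit with the set term compares H90 a alone with vehicle, since only H90 has libraries in both sets. Shares of all tested genes called are given here for the main fit only. Left-out libraries gave 44 for H10, M10, M90, the mean of the pools and M90 minus H90, 43 to 44 for H90 minus H10, 35 to 39 for M90 minus M10, 35 to 39 for M10 minus H10, and 10 to 13 for the interaction. The median for the mean of the pools was -2.15 with library size only, which put the median of all genes at -0.16 (mean of pools) and -0.29 (M10), and -1.903 with at least 10 CPM in 3 libraries, a filter that left 40 members. Interaction calls were lost for Mcm3 under 6 settings besides left-out libraries (adjusted p = 0.0599 with library size only, 0.155 with limma-voom), for Mcm7 with limma-voom and without M10 c (0.0771 and 0.0808), and for Timeless with limma-voom, the set term and without M10 c (0.177, 0.053 and 0.054). DESeq2 called 14 interactions and limma-voom 8. Within 1 set, H10 against vehicle also gave 44 lower, and contrasts other than this one, M90 minus M10 and M90 minus H90 had too few libraries for such a fit. The letters a, b and c were not taken as pairs. Residual correlations between libraries of different groups ran from -0.0237 to 0.0829 with the same letter (median 0.00499). With another letter they ran from -0.0579 to 0.05 (median -0.00305). When each library's correlations were averaged by letter, 11 of 15 libraries had the highest mean with their own letter. That is more than unrelated letters would give on average. Whether the letters mark a shared batch was not tested. With the letter as a replicate block, H90 against vehicle gave 28 calls, M90 minus M10 39 and the interaction 11. Depth limited Timeless, Orc1, Gins1 and Pole2 in M10, where 1 or more libraries had at most 3 counts.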
